A study of Mus musculus with 8 samples.

Results

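Collagen genes, a set of other extracellular matrix genes and a few genes of contractile or adhesive stromal cells were followed through pro-B cells that had been grown on a stromal layer. A gene belonged to the set if its name on the array was Col, a number, a and a number (Col1a1 and the like), or if it was Fn1, Sparc, Timp1, Timp2, Timp3, Fstl1, Thbs1, Mgp, Bgn, Dcn, Lum, Fbn1, Postn, Acta2, Tagln or Vcam1. The set held 56 genes, 40 of them collagen genes, on 78 of the 39429 probes. Of these, 51 probes were well above background on at least 2 of the 8 arrays, and 44 genes (30 collagen genes and 14 of the 16 others) were tested among 22928 genes in all. The 12 genes left out were Lum, Postn, Col4a3, Col9a3, Col11a1, Col12a1, Col13a1, Col17a1, Col19a1, Col22a1, Col24a1 and Col28a1. Each of them was well above background on 0 or 1 array, and no member probe was saturated.

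The series compared sorted pro-B cells, an early stage of B lymphocytes, of BALB/c mice that lack Rag1, without which B cells stop at that stage. Adult bone marrow (BM) cells, 2 mice per sort, received a Lin28b retrovirus or the empty vector pMIG. Fetal liver (FL) cells of gestation day 16, pooled from an average of 8 embryos, received a let-7b retrovirus or the empty vector MSCV. Lin28b is an RNA-binding protein of fetal blood cells that blocks the maturation of let-7 microRNAs, and let-7b is one of those microRNAs. In all 4 groups the cells were sorted into wells with OP9 stromal cells and IL-7 and were transduced the next day. They were sorted again 4 days later, for which the labels name the vector's GFP as the gate and no marker against stromal cells. Each group held 2 arrays from separate sorts, numbered 1 and 2.

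Collagens are helices of wound chains in which glycine recurs at a fixed spacing, the one residue small enough for the core of the helix. Fibroblasts, cartilage cells and marrow stroma lay them down with glycoproteins such as fibronectin and with inhibitors that slow their breakdown. Lymphoid cells are not known as major makers of this matrix, but bind it through integrins. OP9 is a stromal line from mouse calvaria that makes no M-CSF and supports B cell growth in culture.

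The part of a collagen gene that gives these chains their form can be read from the array's own probes. For 2 members the tested probe lay in the repeat itself, and its sequence is shown with each codon that starts with GG, and so encodes glycine, in capitals. Both were chosen because such a codon stood in 6 of the 6 places where it could recur, and probes partly in the repeat were not looked for. The Col15a1 probe lies at chr4:47283786-47283845 and the Col25a1 probe at chr3:130270497-130270556, both on the plus strand of mouse build mm9, per the array's design.
Col15a1: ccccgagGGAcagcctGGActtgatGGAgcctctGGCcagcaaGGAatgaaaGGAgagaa
Col25a1: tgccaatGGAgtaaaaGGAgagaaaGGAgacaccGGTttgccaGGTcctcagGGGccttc
Both are dim members, and their values are given with the collagens of their class. The microRNA given to the FL cells is shown with its seed, bases 2 to 8, in capitals (RefSeq, GRCm38.p6, chr15:85707325-85707346, plus strand).
mmu-let-7b-5p: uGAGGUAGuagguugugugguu

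A level is log2 of the probe's signal over the 75th percentile of its array, so 0 means a signal equal to that percentile and negative levels lie below it. Where 2 pairs of levels are set against each other, the first pair is the empty-vector group and the second the treated group, each in the order of arrays 1 and 2. Levels of different genes come from different probes and were not set against each other. A difference is that of group means on this log2 scale with the standard error (SE) of limma's fit over all 8 arrays, n = 2 arrays per group. A gene was called at an adjusted p below 0.05 (limma, Benjamini-Hochberg over the 22928 genes). With 2 arrays against 2 an exact permutation test of one value cannot go below p = 0.333, two-sided.

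The 4 BM arrays lay on 1 slide, and the FL arrays on the second and the third, each slide with 1 empty-vector and 1 let-7 array. The 75th-percentile signal was 1920 to 2230 on BM arrays and 271 to 488 on FL arrays. Of the 78 member probes, 44 to 49 were well above background on a BM array, 47 and 50 on the FL arrays of the second slide, and 31 and 37 on those of the third. The pro-B identity of the cells could be read from 13 marker genes, all well above background on all 8 arrays, among them the receptor subunits Cd79a and Cd79b, the transcription factors Pax5 and Ebf1 and the surrogate light chains Vpreb1 and Vpreb2.

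With empty vector alone, matrix RNA was already measured in the BM samples. In the BM empty-vector group 40 of the 56 genes were well above background on at least 1 array, in FL empty vector 42, in BM Lin28b 43 and in FL let-7 44. In all, 37 members were well above background on the 4 BM arrays and 24 on all 8 arrays. Fn1, which encodes the adhesive glycoprotein fibronectin, had a level of 3.30 and 3.52 on the BM empty-vector arrays and 1.70 and 2.46 on those of FL. Col1a2, a chain of type I collagen, lay at 1.77 and 2.05 in BM and at 0.03 and -0.50 in FL. In these bulk samples more cells of another type and more RNA per cell cannot be told apart.

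**Figure D1:**
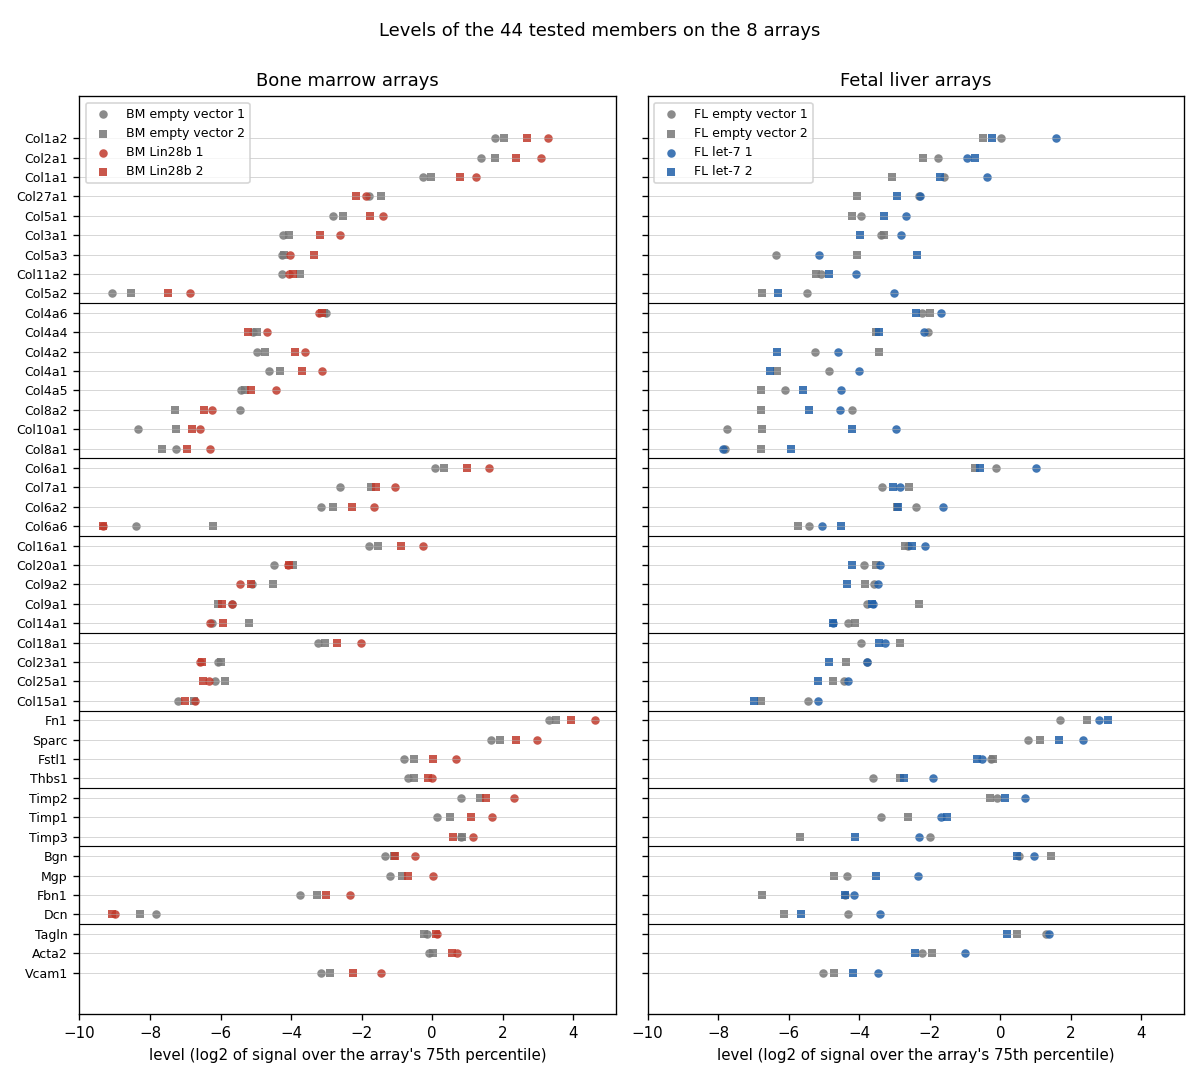
Each row is 1 of the 44 tested members, grouped by role between the lines (from the top: fibrillar, network, beaded filament and anchoring, fibril-associated, and membrane-spanning or multiplexin collagens, glycoproteins, protease inhibitors, proteoglycans and microfibril genes, and contractile or adhesion genes), and the axis is the level in log2 over the array's 75th percentile, with BM arrays on the left and FL arrays on the right (grey for empty vector, red for Lin28b, blue for let-7, circles for array 1 and squares for array 2). BM Lin28b 1 is the highest of the 4 BM arrays in 31 of the 44 rows, and points that were not well above background are drawn at their measured value.

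Lin28b in BM cells went with higher values of most matrix genes, by about 1 on the log2 scale for many of them, and no member was called. The difference was positive for 36 and negative for 8 of the 44 members, with a median of 0.74 (quartiles 0.05 and 1.07), where all genes had a median of -0.04 (quartiles -0.18 and 0.08). In 29 members both Lin28b arrays lay above both empty-vector arrays and in 7 both lay below. Among all genes the same held for 18.4% and 32.3%. Over all genes 0% were called in limma's test, and at an unadjusted p under 0.05 there were 819 genes, among them 9 members with a positive and 1 with a negative difference.

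The fibrillar collagens, which form the tensile fibres of connective tissue, had positive differences in 8 of 9 tested genes (median 1.11). Col1a1 (mm9 chr11:94813115-94813174) lay at -0.26 and -0.02 on the empty-vector arrays and at 1.25 and 0.80 with Lin28b. Col1a2 (chr6:4490619-4490678), the partner chain in type I collagen, lay at 1.77 and 2.05 and at 3.27 and 2.70. In both genes the 2 groups did not overlap, and the differences were 1.16 ± 0.61 and 1.08 ± 0.61 (SE, limma adjusted p = 1 for both). Col2a1 (chr15:97806071-97806130), the main collagen of cartilage, lay at 1.39 and 1.79 against 3.08 and 2.39, a difference of 1.14 ± 0.30. Col3a1, of elastic tissues such as vessel walls, lay at -4.23 and -4.05 against -2.61 and -3.17 (1.25 ± 0.40). Col5a1, which sets the width of type I fibrils, lay at -2.81 and -2.54 against -1.39 and -1.75 (1.11 ± 0.27). These 3 genes did not overlap between the groups either, and each had an adjusted p of 1. Col27a1, another fibrillar gene, had levels of -1.80 and -1.45 with empty vector and of -1.87 and -2.15 with Lin28b, both below the controls (-0.38 ± 0.58). Col5a3 lay at -4.26 and -4.19 against -4.02 and -3.35. Col11a2 lay at -4.27 and -3.75 against -4.06 and -3.95, within the spread of its replicates.

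The beaded filament collagen VI, which links cells to the fibres around them, had the same size of difference in its first 2 chains. Col6a1 had levels of 0.08 and 0.34 with empty vector and of 1.61 and 0.98 with Lin28b (1.09 ± 0.55). Col6a2 had levels of -3.16 and -2.80 and of -1.66 and -2.27 (1.01 ± 0.47). Neither gene overlapped between the groups (adjusted p = 1 for both). Col7a1, of the anchoring fibrils under epithelia, lay at -2.60 and -1.74 against -1.06 and -1.59.

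Of the 8 tested network collagens of basement membranes and hypertrophic cartilage, 7 had a positive difference (median 0.71). The pair Col4a1 and Col4a2, which encode the chains of the common type IV network, lay at -4.63 and -4.31 against -3.13 and -3.68 and at -4.97 and -4.74 against -3.61 and -3.90, with no overlap. These 2 genes lie head to head, on opposite strands, with start sites 21 bases apart in the RefSeq table (GRCm38.p6). They are dimmer than the 30 brightest members, and like all genes below that line that are given values here they were chosen after their values were seen. Col4a6, a chain of another type IV network, had levels of -3.01 and -3.07 against -3.22 and -3.11. Col4a4 lay at -5.09 and -4.96 against -4.68 and -5.21, so its groups overlapped.

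The fibril-associated collagens and the joint class of membrane-spanning and multiplexin collagens had medians near 0 (0.05 over 5 genes and -0.15 over 4). Differences in the joint class were 0.79 for Col18a1, 0.11 for Col15a1, -0.41 for Col25a1 and -0.51 for Col23a1. Col16a1, of the fibril-associated class, differed from its class, at -1.80 and -1.54 with empty vector and -0.25 and -0.89 with Lin28b (1.10 ± 0.25, adjusted p = 1). Of its 2 other kept probes 1 gave 1.09 and the other, well above background on 5 arrays, -0.23. Col18a1, source of endostatin, lay at -3.24 and -3.04 against -2.01 and -2.69, and its second probe gave a difference of 0.76 beside 0.79. Col20a1 had levels of -4.48 and -3.95 against -4.08 and -4.06, and Col9a2, a partner of cartilage fibrils, of -5.12 and -4.50 against -5.44 and -5.15. The groups overlapped in Col20a1, and in Col9a2 both Lin28b arrays lay below both controls. Col15a1 and Col25a1, whose repeat sequences are printed above, lay at -7.20 and -6.76 against -6.72 and -7.02 and at -6.17 and -5.87 against -6.34 and -6.51. Col15a1 was not well above background on either control array, and another kept probe of Col25a1, above background on 3 arrays, gave a difference of -1.95.

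Among the glycoproteins all 4 tested genes lay above the controls on both Lin28b arrays (median 0.87). Fn1 (chr1:71632116-71632175) lay at 3.30 and 3.52 with empty vector and at 4.61 and 3.95 with Lin28b. Sparc (chr11:55208939-55208998), the collagen-binding protein of remodelling tissue, lay at 1.66 and 1.92 and at 2.96 and 2.37. The differences were 0.87 ± 0.33 and 0.88 ± 0.31, or 1.83-fold and 1.84-fold, each with an adjusted p of 1. A second, dimmer Sparc probe gave 0.92. Fstl1, a secreted relative of follistatin, lay at -0.81 and -0.51 against 0.68 and 0.03 (1.02 ± 0.24). Thbs1, which encodes thrombospondin and activates latent TGF-beta, lay at -0.68 and -0.51 against -0.01 and -0.12 (0.53 ± 0.35). In each of these 4 genes the first Lin28b array lay above the second.

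The inhibitors of matrix proteases divided. Timp1 (chrX:20451802-20451861), a secreted inhibitor, lay at 0.13 and 0.50 against 1.69 and 1.09 (1.07 ± 0.33), and Timp2, which also helps to activate a gelatinase, at 0.81 and 1.35 against 2.33 and 1.52 (0.85 ± 0.36, with 0.63 on its second probe). Both had no overlap and an adjusted p of 1. Timp3, the inhibitor that stays bound to the matrix, had levels of 0.82 and 0.84 with empty vector and of 1.15 and 0.59 with Lin28b, which lie on either side of the controls (0.04 ± 1.23).

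Of the remaining members, Vcam1, the adhesion receptor through which stroma holds B cell precursors, lay at -3.16 and -2.90 against -1.45 and -2.24 (1.19 ± 0.36, adjusted p = 1). Its second probe was well above background on 1 array. Acta2, smooth muscle actin, lay at -0.10 and 0.01 against 0.71 and 0.56, and Tagln, an actin-binding protein of smooth muscle, at -0.15 and -0.22 against 0.13 and 0.12 (0.31 ± 0.45). Mgp, an inhibitor of mineralization, lay at -1.20 and -0.85 against 0.02 and -0.69, Bgn, the small proteoglycan biglycan, at -1.33 and -1.08 against -0.49 and -1.06, and Fbn1, of microfibrils, at -3.74 and -3.27 against -2.33 and -3.02. These 6 genes had no overlap between the groups, although the second Lin28b array lay close to a control for Bgn. Dcn, the proteoglycan decorin, was not well above background on any BM array. Col10a1, of hypertrophic cartilage, and Col8a1, a network collagen of vessels, were not well above background with empty vector and were so on both Lin28b arrays. The lower bounds of their folds with Lin28b were 1.01 and 1.06. Col8a1 was tested only because of those 2 arrays, so the direction of its difference was set by the filter. Col10a1 was tested because of those and the 2 let-7 arrays. Col6a6, a collagen VI chain, was the 1 member with a negative difference at an unadjusted p under 0.05. It was well above background on 1 control array and on no Lin28b array (-8.40 and -6.22 against -9.33 and -9.34), so the size of its difference was not measured.

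**Figure D2:**
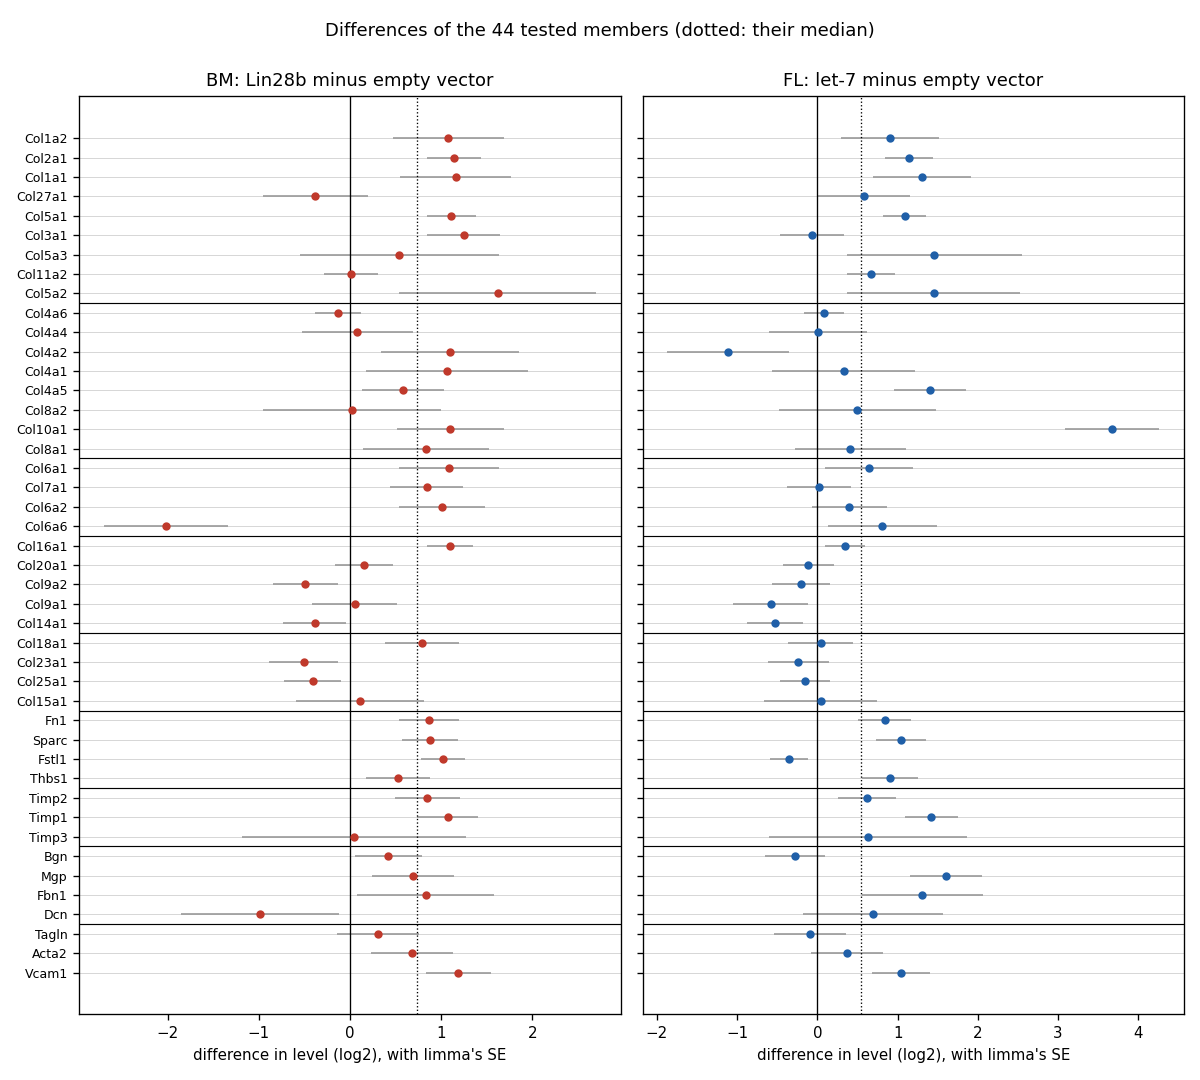
Points are the differences of the 44 tested members in log2, with bars of 1 SE from limma, for Lin28b minus empty vector in BM (left, red) and let-7 minus empty vector in FL (right, blue). Rows are grouped by role as in the plot of levels, the dotted lines mark the medians of 0.74 and 0.54, and no member in either panel was called.

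The 4 BM arrays fell into one order for most of these genes. The order BM empty vector 1, BM empty vector 2, BM Lin28b 2, BM Lin28b 1, from low to high, held in 26 of 44 members, which is 59.1%, against 6.27% of all genes. BM Lin28b 1 was the highest BM array in 31 members (70.5%, against 18.9% of all genes). Over the 37 members well above background on all BM arrays, the median distance from BM empty vector 1 was 0.26 for BM empty vector 2, 1.24 for BM Lin28b 1 and 0.66 for BM Lin28b 2. So the 2 Lin28b arrays differed from each other by more than the 2 controls did. The summed signal of the members, in multiples of the 75th percentile, was 31.3 and 37.5 with empty vector and 77.3 and 51.1 with Lin28b. Without BM Lin28b 1 the difference was positive in 31 of 44 members with a median of 0.48, and without BM Lin28b 2 in 35 with a median of 1.08. In these fits too 0 members were called.

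Markers of other cells on the same arrays were read from lists that hold none of the members. The stromal and fibroblast list had 35 tested genes, of which 29 had a positive and 6 a negative difference with Lin28b (median 0.68, 0 called). In 25 of them both Lin28b arrays lay above both controls and in 4 below, against 18.4% and 32.3% of all genes. The 4 were Fap, Cdh11, Cnn1 and Mfap4. In this list the arrays stood in the same order as the members' in 21 of 35 genes. It included the matrix glycoprotein Fbln2 (1.07 ± 0.24), the growth factor receptor Pdgfrb (0.64 ± 0.17) and Efemp2, a protein of elastic fibres (1.06 ± 0.29), each with a limma adjusted p of 1. The summed level of this list was 26.2 and 28.6 with empty vector and 54.1 and 38.1 with Lin28b, and 4 and 2 of its 38 genes on the array were not above background on any array of the respective group. The adipocyte list had a median of 0.96 over 9 genes, with the fatty acid carrier Fabp4 at 0.34 and 0.56 against 1.96 and 1.33 and the nuclear receptor Pparg at -1.32 and -1.08 against 0.02 and -0.51. Of the 9 genes 7 had a positive and 2 a negative difference. The 2 were Plin1 (-0.61 ± 0.24) and Lep (-0.34 ± 0.26), with both Lin28b arrays below both controls. The summed level of the adipocyte list was 4.21 and 4.49 against 8.92 and 7.56.

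Of 13 tested pro-B markers 11 had a negative difference (median -0.12, 0 called), where 59.3% of all genes did, and their summed level was 552 and 522 with empty vector and 436 and 467 with Lin28b. The smallest p was that of Dntt, the terminal transferase of antigen receptor joining, at 6.48 and 6.41 against 5.70 and 5.53. Medians of the other lists were -0.47 for endothelial, 0.25 for platelet, -0.31 for macrophage, -0.07 for stellate, -0.18 for hepatocyte and 0.10 for osteoblast and cartilage markers, each with 0 genes called. Their part, and that of the stromal and adipocyte genes, in the members' differences was not tested, and neither was whether the RNA came from OP9 cells in the sorted samples or from the pro-B cells.

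**Figure D3:**
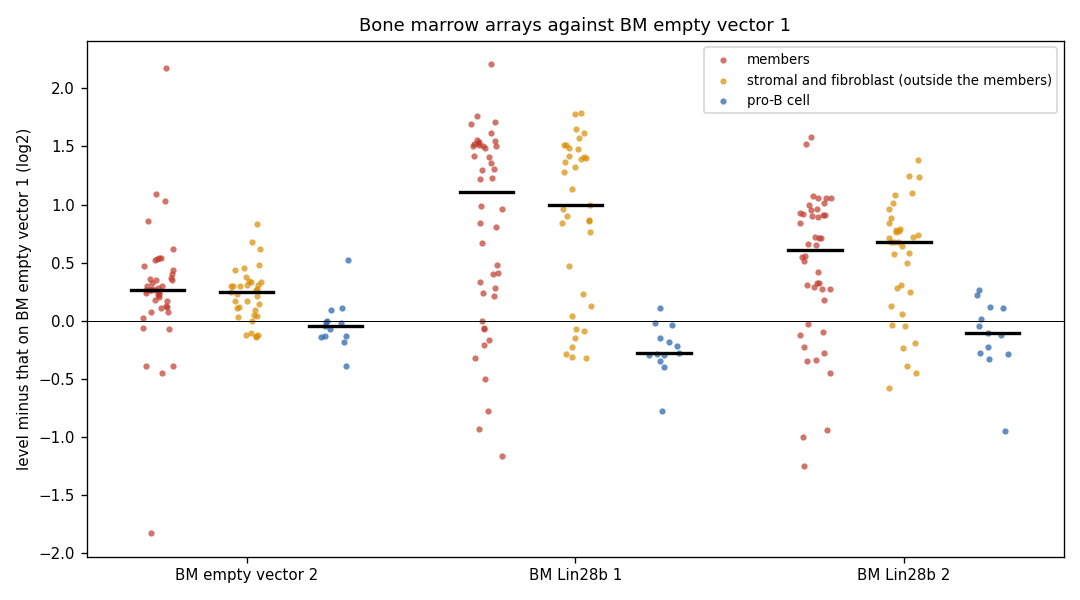
Each point is a gene's level on a BM array minus its level on BM empty vector 1, in log2, for the 44 members (red), 35 stromal and fibroblast genes outside the members (orange) and 13 pro-B markers (blue), with black bars at the medians. The members' medians are 0.26, 1.11 and 0.60 on BM empty vector 2, BM Lin28b 1 and BM Lin28b 2, those of the other stromal genes 0.25, 1.00 and 0.68, and those of the pro-B markers -0.04, -0.29 and -0.11.

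The genes that work with collagen were followed in 7 lists with Lin28b, and none of their genes was called. Enzymes of collagen synthesis and secretion had a median of 0.01 over 23 genes, 12 of them positive. Within that list P4ha2, a subunit of the hydroxylase that stabilizes the helix, had a difference of 1.29 ± 0.24, Pcolce, which speeds the removal of the procollagen end, one of 1.09 ± 0.30, and the collagen chaperone Fkbp10 one of 1.27 ± 0.35 (adjusted p = 1 for each). The cross-linking enzymes had a median of 0.82 over 6 genes, with Lox at -3.21 and -2.60 against -1.54 and -2.32. Basement membrane and other matrix proteins had a median of 0.34 (18 of 26 positive), with the laminin chain Lamb1 at 1.09 ± 0.29 and the linker Nid1 at 1.16 ± 0.33. Proteases and their other inhibitors had a median of 0.50 (10 of 13 positive), with the gelatinase Mmp2 at 0.89 ± 0.35. Receptors for matrix and Vcam1 had a median of 0.29 (16 of 23 positive), TGF-beta genes one of 0.20 (13 of 19) and contractile and actin genes one of 0.05 (9 of 15). The intermediate filament Vim, which lymphocytes express as well, lay at 5.27 and 5.26 against 5.47 and 5.46.

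Promoters of 41 member genes were in the RefSeq table. Because most members had differences of one sign, the 250 bases before their start sites were searched on both strands for 3 general promoter elements. The CCAAT box (CCAAT or ATTGG) was in 14 of the 41 (34.1%, against 37.5% of all genes), the TATA box (TATAAA or TTTATA) in 6 (14.6%, against 14.3%) and the GC box (GGGCGG or CCGCCC) in 25 (61%, against 35.4%). The promoters of Col1a2 and Timp1, genes that stood in the same order on the BM arrays, are shown as examples with their CCAAT boxes in capitals. They are at chr6:4505368-4505617 and chrX:20869916-20870165 of GRCm38.p6, both on the plus strand, and the box starts 109 and 190 bases before the start site.
Col1a2: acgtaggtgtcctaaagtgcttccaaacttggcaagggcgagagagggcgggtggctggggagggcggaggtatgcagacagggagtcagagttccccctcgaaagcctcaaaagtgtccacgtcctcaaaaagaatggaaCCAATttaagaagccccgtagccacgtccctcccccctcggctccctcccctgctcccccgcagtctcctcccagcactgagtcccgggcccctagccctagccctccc
Timp1: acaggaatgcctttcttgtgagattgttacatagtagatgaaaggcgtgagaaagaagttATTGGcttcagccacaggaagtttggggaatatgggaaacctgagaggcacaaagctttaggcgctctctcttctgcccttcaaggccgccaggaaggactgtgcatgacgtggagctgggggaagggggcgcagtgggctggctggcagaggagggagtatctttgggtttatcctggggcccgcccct
Both windows also hold a GC box, which is not marked. All these matches are letters in a window and were not tested as binding sites or for a link to the order of the arrays.

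Let-7 in FL cells also went with positive differences in most members, again without a call, with a larger median on the second slide than on the third. The difference was positive for 33 and negative for 11 of 44 members, with a median of 0.54 where all genes had -0.06. Of all genes 0.0218% were called higher and 0.00872% lower, 7 genes in total and no member, and 10 members had an unadjusted p under 0.05, all with positive differences, among 2240 of all genes. Both let-7 arrays lay above both controls in 15 members and below in 2, against 11.9% and 18.2% of all genes. On the second slide, which holds the first array of each group, the median of the members was 0.66, and on the third it was 0.23 (all genes -0.01 and -0.12). Within both slides 23 members had a positive and 3 a negative difference, against 22.9% and 35.3% of all genes. Over the 24 members well above background on the 4 FL arrays the slides gave 0.61 and 0.07. With the slide, which is also the replicate number, as a block, 0 members were called.

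The FL arrays of the second slide lay both above those of the third in 16 of the 44 members, against 31.0% of all genes. FL let-7 1 was the highest FL array in 27 members (61.4%, against 25% of all genes). Without it the members' median was -0.06, with 20 positive and 24 negative, and without FL let-7 2 it was 0.93, with 38 positive. Without FL empty vector 2, the array with the lowest 75th-percentile signal, the median was 0.33 with 29 positive.

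**Figure D4:**
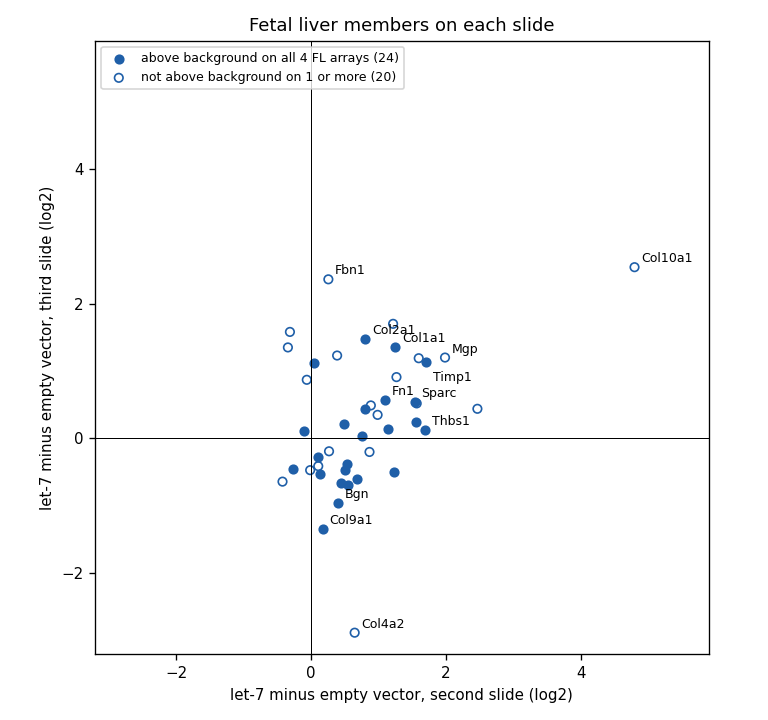
Each point is 1 member, with the let-7 minus empty-vector difference in log2 on the second slide (horizontal) and on the third (vertical), filled where the gene was well above background on all 4 FL arrays (24 genes) and open where not (20 genes). In the upper right are the 23 members that were positive on both slides. The position of an open point such as Col10a1 rests on at least 1 array not well above background.

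The members with non-overlapping groups in FL included many of the brighter ones. Timp1 lay at -3.38 and -2.63 with empty vector and at -1.67 and -1.50 with let-7 (1.42 ± 0.33, adjusted p = 0.27), and Col2a1 at -1.76 and -2.19 against -0.95 and -0.72 (1.14 ± 0.30, adjusted p = 0.33). Sparc lay at 0.79 and 1.12 against 2.34 and 1.66 (1.04 ± 0.31, adjusted p = 0.391), with 1.17 on its second probe. Fn1 lay at 1.70 and 2.46 against 2.80 and 3.04 (0.84 ± 0.33, adjusted p = 0.505). In each of these 4 genes the let-7 arrays lay above the controls and the difference was positive on both slides. Mgp (-4.34 and -4.73 against -2.34 and -3.53) and Col5a1 (-3.94 and -4.22 against -2.67 and -3.31) did not overlap either, with differences of 1.60 ± 0.45 (adjusted p = 0.361) and 1.09 ± 0.27 (0.305), though each was well above background on 1 of the 2 empty-vector arrays.

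The other members of the same classes were less uniform. Col1a1 lay at -1.61 and -3.06 against -0.37 and -1.70, so that the groups overlapped, while its differences within the slides were 1.25 and 1.36. Col1a2 lay at 0.03 and -0.50 against 1.59 and -0.25 and had within-slide differences of 1.56 and 0.25 (0.90 ± 0.61, adjusted p = 0.705). Thbs1 lay at -3.60 and -2.85 against -1.90 and -2.73, and Vcam1 at -5.04 and -4.71 against -3.48 and -4.19 (1.04 ± 0.36, adjusted p = 0.445). Vcam1 and Thbs1 were non-overlapping, though Vcam1 was well above background on only 1 of the 2 empty-vector arrays. Timp2 lay at -0.11 and -0.30 against 0.70 and 0.14 (0.62 ± 0.36). Fstl1 lay at -0.26 and -0.22 against -0.51 and -0.67, Col3a1 at -3.38 and -3.30 against -2.82 and -3.99, and Col16a1 at -2.63 and -2.71 against -2.14 and -2.50. Both let-7 arrays lay below the controls for Fstl1 and above them for Col16a1, and the groups overlapped for Col3a1. Whether the 2 treatments differ in these genes was not tested.

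Most of the rest of the 30 brightest members overlapped between the groups in FL. The groups overlapped for Tagln (1.28 and 0.47 against 1.39 and 0.18), Acta2 (-2.23 and -1.93 against -1.00 and -2.42), Bgn (0.54 and 1.43 against 0.95 and 0.47) and Timp3 (-2.00 and -5.69 against -2.31 and -4.11). They also overlapped for the collagen VI chains Col6a1 (-0.12 and -0.72 against 1.02 and -0.57) and Col6a2 (-2.39 and -2.93 against -1.63 and -2.90). Among the fibrillar genes Col11a2 did not overlap (-5.09 and -5.22 against -4.10 and -4.87), while Col27a1 (-2.31 and -4.06 against -2.27 and -2.94) and Col5a3 (-6.35 and -4.06 against -5.13 and -2.36) did. Fbn1 did not overlap either (-4.41 and -6.76 against -4.15 and -4.41). Its second control was not well above background, and Col11a2 was well above background on only 1 array of each group. The network and anchoring genes Col4a6 (-2.23 and -2.00 against -1.69 and -2.38), Col4a4 (-2.06 and -3.54 against -2.16 and -3.43) and Col7a1 (-3.37 and -2.58 against -2.86 and -3.05) overlapped, as did Col18a1 (-3.95 and -2.84 against -3.27 and -3.44), Col20a1 (-3.86 and -3.54 against -3.42 and -4.20) and Col9a2 (-3.58 and -3.83 against -3.46 and -4.36).

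Col10a1, a short-chain collagen that hypertrophic cartilage makes in the growth plate, was the member called under 1 alternative setting with let-7. Its tested probe (chr10:34116831-34116890) was not well above background on either control array, at -7.76 and -6.76, and was well above it on both let-7 arrays, at -2.96 and -4.22. It was at least 2.7-fold higher, and it was tested because of these arrays and the 2 of BM Lin28b. The adjusted p was 0.145 (limma), and the size beyond that bound was not measured. Its second probe was below background on all 8 arrays. After quantile scaling its adjusted p was 0.0354 (limma), and it was the single member called. Of all 22928 genes 57 were called higher and 29 lower under that setting. Its upstream 250 bases (GRCm38.p6 chr10:34389731-34389980, plus strand) are shown because it was that single member. The capitals mark a TATA box that starts 32 bases before the start site.
Col10a1: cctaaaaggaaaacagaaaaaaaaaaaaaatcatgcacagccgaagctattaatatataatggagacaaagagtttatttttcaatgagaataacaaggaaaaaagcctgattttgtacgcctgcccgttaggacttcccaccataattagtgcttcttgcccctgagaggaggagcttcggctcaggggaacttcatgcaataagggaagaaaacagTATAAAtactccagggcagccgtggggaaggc

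Stromal markers outside the members had a median of 0.35 with let-7 (28 of 35 positive, 0 called), with the mesenchymal transcription factor Prrx1 at 1.89 ± 0.46 (adjusted p = 0.297) and S100a4, a calcium-binding protein of fibroblasts and leukocytes, at 0.99 ± 0.34 (adjusted p = 0.443). Their summed level was 11.6 and 16.6 with empty vector and 18.4 and 15.7 with let-7, and that of the members was 16 and 17.7 against 29.8 and 20.8. Of the 38 genes 9 with empty vector and 6 with let-7 were not above background on any array. Adipocyte markers had a median of 0.51 (6 of 9 positive), with Fabp4 at 1.13 ± 0.33 and Cd36 at -0.61 ± 0.26. Pro-B markers had a median of 0.05, with a summed level of 902 and 1190 against 1030 and 1070. Medians of the other lists were -0.14 for endothelial and for macrophage markers, -0.11 for platelet, 0.44 for stellate, -0.27 for hepatocyte and 0.04 for osteoblast and cartilage markers, with 0 genes called. Their part in the result was not tested.

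The 7 lists around collagen had medians near 0 with let-7, from -0.16 for contractile and actin genes and -0.08 for synthesis and secretion enzymes to 0.19 for proteases, and 0 genes called. Lox lay higher on both let-7 arrays (-5.51 and -6.29 against -4.35 and -4.96), and so did Pcolce (-0.38 and -0.16 against 1.04 and 0.36). Lox was well above background on 5 of the 8 arrays. Its levels on the third slide lay below the lowest level well above background there (-4.49 with empty vector and -4.68 with let-7). Spp1, the matrix phosphoprotein osteopontin, lay at -3.50 and -3.14 against -2.10 and -1.93 (1.31 ± 0.28, adjusted p = 0.242). Lower on both let-7 arrays lay Nid2 (-1.89 ± 0.38, limma adjusted p = 0.222) and the synthesis gene Colgalt2 (-2.46 ± 0.22, 0.0589). Nid2 was well above background on 5 of the 8 arrays and Colgalt2 on 2. On the let-7 arrays both Nid2 (-5.80 and -6.95) and Colgalt2 (-6.20 and -6.76) lay below the lowest level well above background (-5.53 and -4.68). The sizes of these 2 differences were therefore not measured. In the synthesis list 4 genes lay above both controls on both let-7 arrays and 8 below. Among basement membrane and other matrix proteins these counts were 4 and 1.

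Between FL and BM cells with empty vector the matrix genes differed in both directions, and this comparison cannot tell tissue from vector, slide and scan. In FL 9 members were called higher and 14 lower, with a median of -0.44, where of all genes 40.1% were called higher and 19.5% lower and the median was 0.52. Both FL arrays lay above both BM arrays in 15 members and below in 20, against 54.8% and 28.3% of all genes. The split depended on the scaling. After quantile scaling, which brought the median of all genes to 0.04, 3 members were called higher and 18 lower, and after normexp background correction (median of all genes 0.98) 14 higher and 9 lower, with a median of the members of 0.94. Under all 3 settings 3 members were called higher and 9 lower. Without BM empty vector 1 the calls were 4 higher and 8 lower, without BM empty vector 2 they were 6 and 6, and without FL empty vector 2 they were 6 and 9.

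The 9 members called lower in FL under the 3 settings were Fn1, Col1a1, Col1a2, Col2a1, Timp1, Timp2, Timp3, Acta2 and Thbs1. Col2a1 had the smallest adjusted p of all members (0.00076), at 1.39 and 1.79 in BM and -1.76 and -2.19 in FL, and fell by 3.56 ± 0.30. Timp1 fell by 3.32 ± 0.33 (0.13 and 0.50 in BM, -3.38 and -2.63 in FL, adjusted p = 0.000977) and Thbs1 by 2.63 ± 0.35 (-0.68 and -0.51 in BM, -3.60 and -2.85 in FL, 0.00213). These 3 genes were also well above background on every array. Timp3 fell by 4.67 ± 1.23 (adjusted p = 0.0206), from 0.82 and 0.84 to -2.00 and -5.69, so that its FL arrays were far apart and 1 of them was not well above background. Acta2 fell by 2.04 ± 0.45 (0.0111), Col1a1 by 2.20 ± 0.61 (0.0247), Col1a2 by 2.15 ± 0.61 (0.0265), Fn1 by 1.33 ± 0.33 (0.0174) and Timp2 by 1.28 ± 0.36 (0.0246). Of these, Acta2, Fn1, Timp3, Col1a1 and Col1a2 no longer passed without BM empty vector 1 or without BM empty vector 2, with adjusted p values of 0.0508 to 0.111. Timp2 no longer passed without BM empty vector 2 (0.124) or without either FL array (0.0616 and 0.0891). Fn1 also failed without FL empty vector 1 (0.0587), Col1a1 without FL empty vector 2 (0.0906) and Col1a2 without either (0.0572 and 0.105). Col2a1, Timp1 and Thbs1 passed in each of these fits.

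The other members called lower depended on the background correction. Mgp fell by 3.51 ± 0.45 (adjusted p = 0.00188, 0.0861 with normexp), from -1.20 and -0.85 to -4.34 and -4.73, and was well above background on 1 FL array. Vcam1 fell by 1.84 ± 0.36 (0.00706), from -3.16 and -2.90 to -5.04 and -4.71, with 0.23 after normexp. Col5a1 (-1.40 ± 0.27), Col11a2 (-1.14 ± 0.30) and Col16a1 (-1.00 ± 0.25) were called as well, with 0.32, 1.05 and -0.27 after normexp. Col11a2 and Col16a1 also failed when single empty-vector arrays were left out (adjusted p of 0.052 to 0.109 in the fits without a call). The lowest signal well above background was nearer to the 75th percentile in FL (-4.49 to -5.56) than in BM (-6.55 to -7.13), and its part in these calls was not tested.

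Bgn, Col9a1 and Col23a1 were called higher in FL under all 3 settings. Bgn rose by 2.19 ± 0.37 (adjusted p = 0.00441), from -1.33 and -1.08 in BM to 0.54 and 1.43 in FL. Col9a1, a chain of the collagen that coats cartilage fibrils, rose by 2.81 ± 0.47 (0.00446), from -5.67 and -6.06 to -3.79 and -2.31, while its second probe was below background on all arrays. Col23a1, a membrane-spanning collagen, rose by 1.95 ± 0.38 (0.00756). The other 6 calls, for Col4a4 (2.22 ± 0.61), Col4a6, Col9a2, Col14a1, Col25a1 and Dcn, were lost with quantile scaling. Each of the 6 was also lost without at least 1 single empty-vector array, with adjusted p values of 0.0552 to 0.193 in those fits. Dcn was not well above background in BM and was so on 1 FL empty-vector array and 1 let-7 array, with a lower bound of 2.79-fold. It was tested only because of these FL arrays, so the direction of its difference was set by the filter. Tagln lay higher in FL at 1.28 and 0.47 against -0.15 and -0.22 and did not pass (adjusted p = 0.0863), the opposite sign to Acta2.

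**Figure D5:**
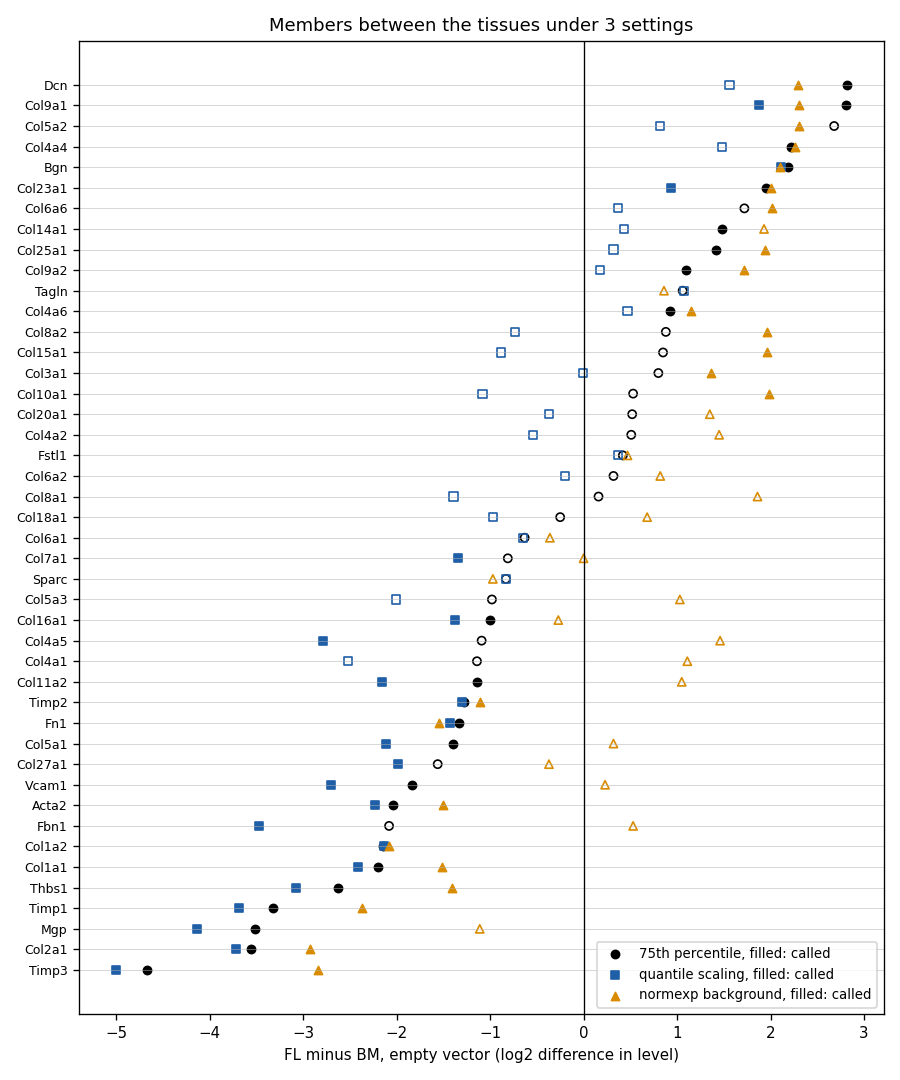
Differences of the 44 members between FL and BM with empty vector, in log2, after 75th-percentile scaling (black circles), quantile scaling (blue squares) and normexp background correction (orange triangles), filled where called. Genes near the bottom, such as Col2a1 and Timp1, lie left of 0 under all 3 settings, while Vcam1 and Col4a1 lie on either side.

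Markers of other cells were called in both directions between the tissues, where of all genes 40.1% were called higher and 19.5% lower. Of 35 stromal genes outside the members 7 were called higher and 18 lower in FL (median -1.05), with the matrix protein Fbln1 higher by 4.05 ± 0.35 (adjusted p = 0.000801). Macrophage markers had a median of 1.39 (5 of 12 called higher, 2 lower), and these counts are close to the shares of all genes. The M-CSF receptor Csf1r lay at -1.52 and -1.56 in BM and 1.89 and 3.13 in FL. The 2 called lower, Clec4f and Lyz2, lay below the lowest level well above background on both FL arrays. Of 10 osteoblast and cartilage genes 7 were called higher and 1 lower (median 2.21), with the cartilage proteoglycan Acan at -5.14 and -5.03 against -3.06 and -2.84. Adipocyte markers had a median of 0.13, with 2 called higher and 3 lower. The hormone gene Lep lay at -7.09 and -6.91 in BM and -3.12 and -2.65 in FL (adjusted p = 0.00051, well above background on 5 of the 8 arrays), and Fabp4 fell by 3.46 ± 0.33 (adjusted p = 0.000928). Their part in the members' differences was not tested.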

How the data were processed

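Agilent Feature Extraction 9.5.3.1 made the deposited spot intensity values, already corrected for background, per the file headers. The authors' deposited series of log2 values (slopes of 0.951 to 1.01 on bright probes, column medians of 7.22 for BM and 6.16 for FL, centring unknown) was used as an alternative within a tissue. Signals were divided by the array's 75th percentile over 43020 non-control spots and put on the log2 scale. Copies of a probe were averaged, and 31 probes with outlier spots were left out. Probes well above background on at least 2 arrays were kept (28410), and the probe of highest mean stood for a gene. limma 3.58.1 under R 4.3.3 fitted 1 mean per group over 8 arrays (prior degrees of freedom 1.69). The fit was also run on simulated data of 22928 genes. There 16.4% of 67 log2 changes of 1 were called in each of the 2 treatment comparisons. Of 67 changes of 2, 61.2% were called for Lin28b and 70.1% for let-7. Of 66 changes of 4 these shares were 86.4% and 90.9%. Among unchanged genes 9 were called for Lin28b and 148 for let-7. Probe names were matched to RefSeq by accession (19857), symbol (1960) or synonym (563), and 6030 kept the name in the files. Where a group had no array above background, a fold is a lower bound: the brighter group's mean over the dimmer group's, each dim array entering at its own value or at its lowest value well above background, whichever is larger.

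The members and all gene lists were chosen with earlier results of these data known. Members were given in full for at most 30 genes, by highest mean level, and up to 3 genes per list and comparison by smallest p. Dimmer members given with values were chosen after their values were seen. Alternatives were quantile scaling, normexp (offset 50), no filter, a filter at 4 arrays, every probe, trend and robust, 1 tissue, the block, the authors' values, and leaving out each array. FL arrays of equal number share a slide, per the file headers, and deviated together (correlation 0.517), and BM arrays did not (-0.055). Separate sorts are the replicates. The number of arrays limits the precision. Whether a probe lies in an exon or UTR was not analysed here. Plots were made with Python 3.11.15 and matplotlib 3.10.9.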

Additional observations from a re-analysis of the deposited data

How the results depend on the processing

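With Lin28b in BM, 0 members were called and the members' median stayed positive under each of the 18 alternatives run (0.48 to 1.08). Leaving out single arrays, 5 genes with differences near 0 changed sign: Timp3 (-0.24 to 0.32), Col4a4 (-0.18 to 0.35), Col20a1 (-0.12 to 0.41), Col11a2 (-0.26 to 0.27) and Col15a1 (-0.12 to 0.33). Col11a2 (-0.14) and Col15a1 (-0.06) also did so with normexp, and Col11a2 (-0.10) in the authors' table. With let-7 in FL, quantile scaling called 1 member, Col10a1, and the others called 0. The members' median moved to 0.20 in the authors' table, and leaving out single arrays it ranged from -0.06 to 0.93, and the sign of 15 genes changed: Col1a2 (-0.02 to 1.82), Tagln (-0.69 to 0.51), Col6a1 (-0.16 to 1.44), Bgn (-0.72 to 0.17), Acta2 (-0.34 to 1.08), Timp3 (-1.21 to 2.48), Col27a1 (-0.29 to 1.45), Col7a1 (-0.37 to 0.41), Col6a2 (-0.24 to 1.03), Col4a6 (-0.27 to 0.42), Col18a1 (-0.51 to 0.59), Col3a1 (-0.65 to 0.52), Col4a4 (-0.73 to 0.75), Col20a1 (-0.50 to 0.28) and Col9a2 (-0.65 to 0.25). With normexp, under which the median of all genes was 0.34, Col3a1 (0.77), Col20a1 (0.73), Col9a2 (0.74) and Col4a2 (0.69) turned positive. Col3a1 was 0.01 with quantile scaling and 0.02 in the authors' table, where Col18a1 was -0.02. The cause was not tested.

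Between FL and BM the members' median was -1.02 with quantile scaling, 0.94 with normexp, 0.53 with no filter on dim probes, -0.81 with the filter at 4 arrays and -0.25 over the 27 members above background on all arrays of both groups, a setting chosen after seeing the data. Leaving out single arrays gave -0.56 to -0.18 and 12 to 28 called members. Vcam1 (0.23), Col5a1 (0.32), Col11a2 (1.05), Col7a1 (0.00), Col18a1 (0.68), Fbn1 (0.53) and Col5a3 (1.03) lost their negative sign with normexp, and Col6a2 (-0.20), Col3a1 (-0.01) and Col20a1 (-0.37) their positive sign with quantile scaling. Leaving out single arrays, Col18a1 ranged from -0.80 to 0.30 and Col5a3 from -2.13 to 0.17. No filter adds 12 genes near background, and normexp adds an offset of 50 to the signals. With the replicate block 0 members were called for Lin28b, 0 for let-7 and 30 for FL against BM (12 higher, 18 lower), although BM and FL arrays of equal number have no common source. The medians under this block were 0.74, 0.54 and -0.44, and the share of all genes called between FL and BM was not counted. The authors' table was not run between the tissues, since its tissues have different medians.

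Low FL signal limits the dim members: 20 of 44 were below the background limit on at least 1 FL array. Where a group has 1 array left, that array is assumed to vary like the others.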
